A study of Mus musculus with 9 samples.

Results

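The RNA of mature eosinophils (Eos) was compared with that of granulocyte-macrophage progenitors (GMP), the cells at the start of the same lineage, in 4 of the 9 libraries of the series. Each sort started from bone marrow that had been pooled from untreated Balb/c mice. The GMP were Lin-, CD34+, c-kithi and CD16/32+, and the Eos were CCR3+ and Siglec-F+. Each cell type gave 2 RNA libraries from separate sorts. The sources used here do not say whether the sorts used different animals, or the age and sex of the mice, so p-values measure the spread between these libraries. The 2 RNA libraries of eosinophil progenitors (EoP; Lin-, CD34+, c-kitlo, CD125+) entered the same fit and show where a gene stood between both ends, and 1 H3K4me3 peak list of each cell type, from a further sort, was set beside the RNA. Counts were summed per gene and given as CPM, the counts scaled to a common library size with TMM factors. Of 23471 genes in the files, 14324 passed the expression filter and were tested, and the 9058 whose group mean reached 10 CPM in GMP or in Eos are described here.

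GMP are dividing progenitors that can still form neutrophils, monocytes, basophils, mast cells and eosinophils, and they make the primary granule proteins of the myeloid lineage. Eosinophils leave this pool under interleukin-5 and the factors GATA1, C/EBP epsilon and PU.1, fill their granules with major basic protein, eosinophil peroxidase and ribonucleases, stop dividing, and become mobile cells that carry CCR3 and Siglec-F. RNA for granule proteins is made mainly while granules form, so its level in the mature cell need not follow the protein stored there. H3K4me3 is a histone mark found at the promoters of active genes.

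The libraries held 6576661 and 5226653 counts in GMP, 9628492 and 12088134 in EoP, and 10940000 and 10790618 in Eos. Rn45s, the gene of the ribosomal RNA precursor, took between 7.48% and 12.9% of the counts of a library. The GMP libraries had the fewest counts and the most genes with a count (19677 and 20542, against 15924 and 16489 in Eos). Across genes, log2 CPM of the same-type libraries correlated with r = 0.966 for GMP, 0.974 for EoP and 0.967 for Eos. Bulk RNA cannot tell fewer cells of a type from less RNA per cell. The Eos libraries also held RNA of neutrophil marker genes. The summed level of the 29 genes of that list, 25 of them described, was 50794 and 59894 CPM against 3142 and 1466 in GMP. Sums over a gene list, here and below, include its members under the described level. The part of other cells in any result below was not tested.

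Of the 9058 described genes, 2973 were higher in Eos (32.8% of those described) and 2624 were lower (29.0%) at an adjusted p under 0.05 (edgeR quasi-likelihood test, Benjamini-Hochberg over the 14324 genes tested). The other 3461 were not called. The largest changes were mostly rises: 282 genes were higher by at least 16-fold and 20 were lower by at least 16-fold. The median log2 change was 1.6 among rises and -1.41 among falls. With a minimum change of 2-fold in the test itself, 1578 genes were higher and 888 lower. The median log2 change over all described genes was 0.05. The balance was the other way over all 14324 genes tested, of which 3253 were higher and 4557 lower (median log2 -0.39). Among the 5266 tested genes below the described level, 280 were higher and 1933 lower.

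Which direction held more genes thus depended on the level a gene had to reach, and also on the scaling. Among called described genes 53.1% were higher with TMM factors, 43.8% with upper quartile factors, 31.6% with library size alone and 60.6% without the Rn45s counts, a setting chosen after the data were seen. These settings moved the median log2 change of all described genes by -0.23, -0.58 and 0.17. Leaving out GMP replicate 1 or GMP replicate 2 lowered the number of falls from 2624 to 1627 or 1266. In every fit with 1 library left out, 2062 of the rises and 1109 of the falls remained called.

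**Figure D1:**
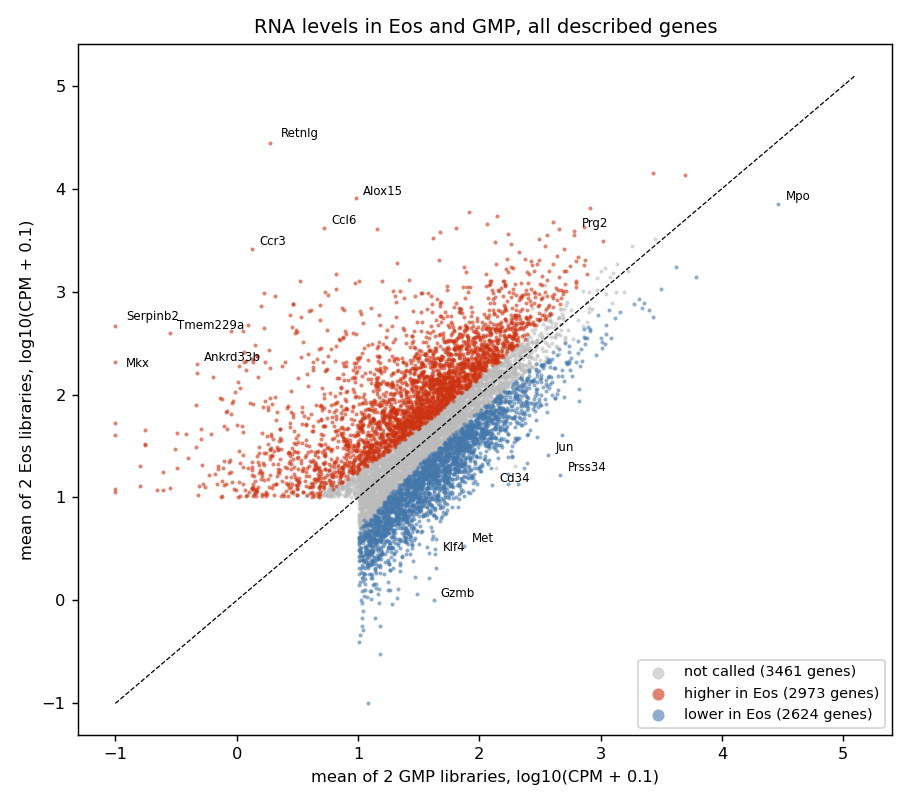
Mean level of each of the 9058 described genes in the 2 GMP libraries (x axis) and the 2 Eos libraries (y axis), as log10(CPM + 0.1); red, blue and grey points are genes higher in Eos, lower in Eos and not called, and the dashed line marks equal levels. Rises reach farther from the line than falls, with Retnlg, Ccr3 and Serpinb2 far above it.

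Promoters of 6 genes are shown because both data types bear on them. These genes were among the 12 largest rises or falls of RNA, and their H3K4me3 promoter peak was listed only in the cell type with more of their RNA. None of these peaks reached the stricter peak threshold, a −log10 q of at least 10, that is used in the closing section. For the rises these genes were Serpinb2, Retnlg and Ccr3, with a promoter peak in the Eos list and none in the GMP list. Their RefSeq promoters (build GRCm38.p6, the assembly of the mm10 coordinates in the files, each 250 bases before to 50 after the start given in the files) lie at chr1:107511260-107511559, chr16:48872358-48872657 and chr9:124021721-124022020, all on the plus strand. Capitals mark GATAA, the core that GATA factors read, and TTGCNNAA, a core read by C/EBP factors, each on either strand; no match overlapped another.

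Serpinb2: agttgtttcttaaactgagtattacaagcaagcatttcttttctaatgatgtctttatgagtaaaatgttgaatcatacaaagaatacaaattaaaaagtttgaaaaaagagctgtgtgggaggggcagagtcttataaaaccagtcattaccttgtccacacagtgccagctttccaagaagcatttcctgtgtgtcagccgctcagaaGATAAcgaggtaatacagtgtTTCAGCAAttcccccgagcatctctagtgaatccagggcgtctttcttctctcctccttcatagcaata
Retnlg: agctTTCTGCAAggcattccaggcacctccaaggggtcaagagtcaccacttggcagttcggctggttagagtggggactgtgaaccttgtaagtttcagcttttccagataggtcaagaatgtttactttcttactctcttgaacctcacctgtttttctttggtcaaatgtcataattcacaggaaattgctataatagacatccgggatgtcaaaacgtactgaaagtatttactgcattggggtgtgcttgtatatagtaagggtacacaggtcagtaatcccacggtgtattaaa
Ccr3: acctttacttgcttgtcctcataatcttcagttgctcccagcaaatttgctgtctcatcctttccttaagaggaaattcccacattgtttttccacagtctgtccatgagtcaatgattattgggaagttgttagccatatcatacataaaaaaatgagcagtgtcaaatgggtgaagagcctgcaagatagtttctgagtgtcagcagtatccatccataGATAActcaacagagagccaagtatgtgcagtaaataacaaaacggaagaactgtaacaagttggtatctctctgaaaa

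For the falls the first 3 such genes were Prss34, Serpinf1 and Bex6, with a promoter peak in the GMP list and none in the Eos list. Their promoters lie at chr17:25298144-25298443 (plus strand), chr11:75422574-75422873 (minus strand) and chr16:32179550-32179849 (plus strand), marked in the same way. The sequences printed for rises and falls follow the gene start and not the peak. The best peak of Bex6 overlapped its sequence, and those of Serpinb2, Retnlg, Ccr3, Prss34 and Serpinf1 lay outside.

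Prss34: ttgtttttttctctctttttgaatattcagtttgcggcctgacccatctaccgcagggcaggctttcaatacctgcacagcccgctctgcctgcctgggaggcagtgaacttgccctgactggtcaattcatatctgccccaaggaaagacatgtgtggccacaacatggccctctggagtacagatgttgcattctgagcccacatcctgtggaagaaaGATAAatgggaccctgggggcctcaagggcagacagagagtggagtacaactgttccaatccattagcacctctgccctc
Serpinf1: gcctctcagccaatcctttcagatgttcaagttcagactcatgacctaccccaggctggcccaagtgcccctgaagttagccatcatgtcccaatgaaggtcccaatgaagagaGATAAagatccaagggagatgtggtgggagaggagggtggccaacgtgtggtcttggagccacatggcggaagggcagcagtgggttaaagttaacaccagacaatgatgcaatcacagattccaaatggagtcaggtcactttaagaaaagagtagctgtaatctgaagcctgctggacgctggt
Bex6: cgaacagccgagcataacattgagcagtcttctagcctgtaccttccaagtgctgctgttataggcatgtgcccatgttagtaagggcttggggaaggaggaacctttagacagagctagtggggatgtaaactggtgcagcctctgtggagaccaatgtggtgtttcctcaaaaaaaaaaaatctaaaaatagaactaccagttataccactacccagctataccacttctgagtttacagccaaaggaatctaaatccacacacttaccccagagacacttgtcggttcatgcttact

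GATAA or its reverse complement TTATC stood in 4 of these 6 windows and TTGCNNAA or TTNNGCAA in 2. Over all 32851 promoters of the table the shares were 25.4% and 10.8%. Among described genes with a promoter in the table, GATAA stood in 14.8% of 2413 genes higher in Eos, 16.2% of 2155 lower and 15.7% of 2816 not called, and TTGCNNAA in 9.16%, 8.07% and 7.49%. A match is no site of binding, and its absence says only that the letters are not in that window.

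Of the 7 genes of the sort gates 5 were higher in Eos and 2 lower. Ccr3, the eotaxin receptor of the Eos gate, had 1.57 and 0.89 CPM in GMP, 21.3 and 34.5 in EoP and 2268 and 2968 in Eos (log2 change 11.01, SE 0.50, adjusted p = 1.49e-06). Siglec5, the RefSeq symbol for Siglec-F, had 18.6 and 15.5 CPM in GMP and 307 and 414 in Eos (log2 4.40, SE 0.27, adjusted p = 3.63e-06). Both Eos libraries stood above both GMP libraries for each gene. Cd34 fell from 130 and 123 CPM to 18.3 and 7.7 (log2 -3.27, SE 0.36, adjusted p = 1.06e-04). Kit, the stem cell factor receptor, fell from 309 and 296 CPM to 111 and 39.0, the Eos libraries being uneven. Fcgr3 and Fcgr2b, which encode the CD16/32 antigens that the GMP gate called for, were higher in Eos and so ran against that gate, at 412 and 592 against 26.9 and 34.6 CPM for Fcgr3. Since these genes chose the cells, their changes check the labels and are no finding; Ccr3, Il5ra, Kit, Cd34, Fcgr3 and Fcgr2b are also counted in the receptor and progenitor lists below.

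**Figure D2:**
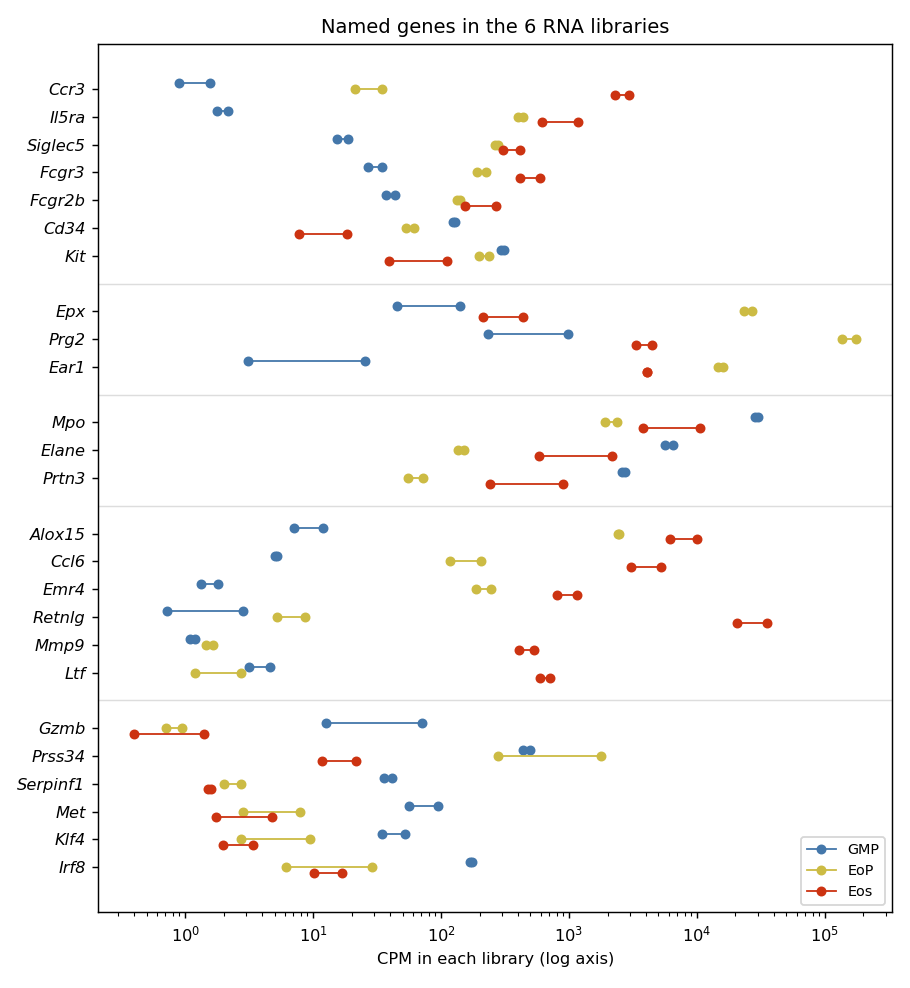
Level of named genes in each of the 2 GMP, 2 EoP and 2 Eos libraries, in CPM on a log axis, with a line joining the libraries of a cell type. The gate genes come first, then granule proteins, genes that rose and genes that fell; Mpo, Elane and Prtn3 have their lowest levels in EoP, and Epx, Prg2 and Ear1 their highest.

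The largest rises held secreted and surface proteins of mature granulocytes. Serpinb2, an inhibitor of plasminogen activation, had no count in either GMP library and 410 and 520 CPM in Eos, which is at least 2305-fold higher against a floor of 3 counts over the GMP group. Retnlg, a resistin-like secreted protein known from neutrophils, had 0.72 and 2.83 CPM in GMP, 8.59 and 5.22 in EoP, and 20554 and 35098 in Eos (log2 13.97, SE 0.87, adjusted p = 3.89e-06). It alone took 1.87% and 2.79% of all counts of the Eos libraries. Alox15, the 12/15-lipoxygenase of eosinophils, had 12 and 7.14 CPM in GMP and 6154 and 10022 in Eos, an 842-fold difference (log2 9.72, SE 0.54, adjusted p = 2.12e-06). Ccl6, a chemokine of the CC family, had 5.07 and 5.2 CPM in GMP and 3033 and 5238 in Eos. Emr4, an adhesion G protein-coupled receptor of the F4/80 family, had 1.81 and 1.34 CPM in GMP and 810 and 1146 in Eos. In all of these genes the libraries of both groups stood apart, which the rule for naming them required. The same held for all 2973 rises and all 2624 falls among described genes. A call with 2 libraries per group leaves little room for overlap, so this is no separate support for the calls.

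The other large rises were rarer RNAs. Mkx, a homeobox factor known from tendon, had no count in GMP, 10.8 and 11.9 CPM in EoP and 161 and 254 in Eos, at least 1018-fold above the floor. Tmem229a, a little known membrane protein, had 3 counts in GMP and 237 and 553 CPM in Eos, a ratio of 1916 with a 95% counting interval of 655 to 9293. Ankrd33b had 5 counts over both GMP libraries and 138 and 256 CPM in Eos (log2 9.13, SE 0.67). Fpr2, a formyl peptide receptor, had 1 count in GMP and 52.7 and 36.9 CPM in Eos, a ratio of 681 (122 to 26940). Such intervals cover counting error only. The last 2 of the 12 largest rises, Eif2s3y and Ddx3y, are on the Y chromosome and are given among the other observations.

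The largest falls were of mixed kinds. Gzmb, for granzyme B, had 12.7 and 70.9 CPM in GMP and 0.40 and 1.40 in Eos (log2 -5.55, SE 0.86, adjusted p = 7.54e-04), with uneven GMP libraries. Prss34 and Mcpt8, serine proteases of basophils and mast cells, fell from 496 and 436 to 21.5 and 11.7 CPM and from 220 and 196 to 20.9 and 5.95 CPM. In EoP Prss34 stood at 281 and 1779 CPM and Mcpt8 at 140 and 805. Serpinf1, which encodes pigment epithelium-derived factor, fell from 35.6 and 41.5 to 1.6 and 1.52 CPM (log2 -4.61, SE 0.38, adjusted p = 1.70e-05). Met, the hepatocyte growth factor receptor, fell from 94.8 and 55.8 to 4.81 and 1.75 CPM. Klf4, a factor of monocyte development, fell from 34.4 and 52.3 to 3.41 and 1.98 CPM.

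A further 5 genes fell by log2 values between -4.15 and -4.87: Apba1, an adaptor of the X11 family, Bmyc, a Myc family member, Bex6, Armcx4 and Rasa4, a Ras GTPase-activating protein. Bmyc went from 46.9 and 41.2 CPM in GMP to 3.31 and 0.58 in Eos, and Rasa4 from 17.2 and 25.6 to 1.20 and 1.17. Jun, a subunit of AP-1, had 119 and 622 CPM in GMP, 739 and 7.53 in EoP and 18.6 and 33.4 in Eos. Its fall (log2 -3.83, SE 1.45, adjusted p = 4.55e-02) was lost without GMP replicate 1, GMP replicate 2, Eos replicate 1 or Eos replicate 2.

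Eosinophil granule genes were higher in Eos than in GMP in every described case, 9 of 9 (median log2 change 6.47), and far below EoP. The summed level of all 12 genes of the list was 1291 and 306 CPM in GMP, 258640 and 206150 in EoP, and 17316 and 14694 in Eos. Prg2, for major basic protein, had a mean of 608 ± 528 CPM in GMP and 3867 ± 780 in Eos (SD, n = 2; log2 2.67, SE 0.73, adjusted p = 1.26e-02). Epx, for eosinophil peroxidase, had 92.7 ± 67.4 CPM in GMP and 324 ± 157 in Eos (log2 1.80, SE 0.57, adjusted p = 2.23e-02), a call lost without GMP replicate 2 and with library size alone. GMP replicate 1 held more of these RNAs than GMP replicate 2 for each named gene. Against EoP, the fit gave log2 -5.34 for Prg2 and -6.27 for Epx in Eos.

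Among the eosinophil-associated ribonucleases, Ear1 had 25.6 and 3.12 CPM in GMP, 15998 and 14474 in EoP and 4045 and 4067 in Eos (log2 8.12 for Eos over GMP, SE 0.89, adjusted p = 9.84e-05), and log2 -1.91 for Eos over EoP. Ear2 stood at 9.54 and 1.04 CPM in GMP and 1052 and 929 in Eos. Ear3 and Ear12 carried identical counts in each library and are not independent, and Ear6 and Ear7 overlap on chromosome 14, so reads cannot be assigned to single members with certainty.

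Genes of the primary granule list, most of them made in neutrophil and monocyte progenitors, were lower in Eos in 7 of 11 cases and higher in 2 (median log2 change -1.65). Mpo, for myeloperoxidase, had 29833 and 28280 CPM in GMP, 1919 and 2372 in EoP and 10515 and 3773 in Eos (log2 -2.02 for Eos over GMP, SE 0.52, adjusted p = 9.63e-03), and this call was lost with only the GMP and Eos libraries in the fit. Elane, for neutrophil elastase, had 6474 and 5675 CPM in GMP, 151 and 135 in EoP and 2163 and 586 in Eos. Prtn3, for proteinase 3, had 2732 and 2618 CPM in GMP, 72.3 and 54.7 in EoP and 897 and 239 in Eos. These 3 genes thus stood higher in both Eos libraries than in both EoP libraries, and Eos replicate 1 held more than Eos replicate 2 for each. Without GMP replicate 2, 4 of the 11 genes were called lower, and Ctsg, for cathepsin G, was among those lost. The higher genes were Lyz2, for lysozyme, at 2236 and 1695 CPM in Eos against 323 and 214 in GMP, and Igsf6. Igsf6 is a myeloid surface protein that the list holds and is no granule protein.

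Receptors for chemoattractants were mostly higher. Of 16 chemoattractant receptors 13 were higher and 2 lower (median log2 3.36). Beside Ccr3 and Fpr2, C3ar1, the receptor for complement C3a, rose from 2.30 and 2.53 to 151 and 262 CPM, and P2ry14, a receptor for UDP-sugars, from 2.30 and 5.2 to 171 and 326. Ccr2, the chief chemokine receptor of monocytes, fell from 136 and 102 to 36.4 and 26.5 CPM. Cxcr4, the bone marrow retention receptor, was at 388 ± 148 CPM in Eos and 125 ± 40.4 in GMP (SD, n = 2; log2 1.63, adjusted p = 3.03e-03).

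Cytokine and growth factor receptors split, with 15 of 28 higher and 7 lower (median log2 1.14). The share of falls is near the 29.0% of all described genes. Il5ra, which encodes CD125, rose 448-fold, from 2.17 and 1.78 CPM in GMP to 618 and 1177 in Eos (log2 8.81, SE 0.45, adjusted p = 2.12e-06), with 436 and 399 already in EoP. Csf2rb, the chain shared by the receptors for interleukin-3, interleukin-5 and GM-CSF, was at 244 ± 24.4 CPM in GMP and 782 ± 306 in Eos (SD, n = 2). Il1rl1, the interleukin-33 receptor, rose from 19.0 and 23.3 to 110 and 337 CPM. Il17ra and Il18rap, subunits of the interleukin-17 and interleukin-18 receptors, rose by log2 3.28 and 3.73. Il6st and Il6ra, both parts of the interleukin-6 receptor, fell together with Kit, by log2 -3.34 and -2.66 against -2.01 for Kit. Il4ra did not pass, at 15.8 ± 2.12 CPM in GMP and 12.2 ± 4.25 in Eos (SD, n = 2; log2 -0.37, adjusted p = 4.43e-01). The 7 falls became 4 without EoP replicate 2, Eos replicate 2 or GMP replicate 2 and 3 without GMP replicate 1; Ifngr1, an interferon-gamma receptor chain, was among those lost.

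Of 19 adhesion genes 15 were higher and 1 lower (median log2 1.58). Itgam and Itgb2, which pair as the integrin Mac-1, rose from 134 and 97.3 to 3496 and 5650 CPM and from 57.5 and 34.8 to 1640 and 2434 CPM. Itgb3 and Itgb7, further integrin beta chains, rose by log2 5.18 and 4.44. The single fall, Itga6 (log2 -0.70, adjusted p = 4.61e-02), was lost without either EoP library, either GMP library or Eos replicate 2.

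Inhibitory and activating immune receptors were higher in 22 of 26 cases and lower in none (median log2 2.61). Lilrb3 had 6.4 and 4.76 CPM in GMP and 696 and 1166 in Eos (log2 7.37, SE 0.38, adjusted p = 2.12e-06). Cd300lf, Cd300lb and Lilrb4, all with inhibitory or adaptor-coupled tails, rose by log2 6.93, 5.98 and 4.70. Lilrb3 belongs to a family of near-identical genes, and the sources used here do not say how the authors' counts split shared reads. Trem1 did not pass. Without Eos replicate 1, 2 genes of the list were called lower, and 1 with upper quartile factors.

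Fc receptors showed 5 rises and 2 falls among 7 genes (median log2 2.4). The share of falls is near the 29.0% of all described genes. The rises included Fcgr3 and Fcgr2b, which bind immunoglobulin G. Fcer1g, a signalling chain that receptors for immunoglobulins G and E share, rose from 286 and 208 to 581 and 742 CPM. Those that fell, Fcer1a and Ms4a2, are the alpha and beta chains of the high-affinity receptor for immunoglobulin E, from 56.8 and 48.3 to 10.5 and 3.39 CPM and from 85.3 and 74.7 to 18.9 and 3.50 CPM, the latter call being lost with the largest transcript only.

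Enzymes of lipid mediators were higher in 7 of 10 cases (median log2 3.51) and lower in none. Pla2g7, which breaks down platelet-activating factor, had 1.45 and 0.59 CPM in GMP, 1.29 and 1.11 in EoP and 262 and 570 in Eos (log2 8.60, SE 0.53, adjusted p = 3.76e-06). Alox5, the 5-lipoxygenase of leukotriene synthesis, rose from 45.8 and 35.8 to 510 and 771 CPM, and Lpcat2, which makes platelet-activating factor, from 19.3 and 18.4 to 366 and 558. Lta4h, for leukotriene A4 hydrolase, had 300 ± 9.99 CPM in GMP and 301 ± 41.4 in Eos (SD, n = 2; log2 0.00, SE 0.22). Ltc4s, for leukotriene C4 synthase, was below the described level in these libraries. Without Eos replicate 1, 1 gene of the list was called lower.

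Genes of the phagocyte NADPH oxidase rose together. Of 9 genes of the oxidase and of arginine metabolism 8 were higher and none lower (median log2 2.52). Cybb, the catalytic subunit, had 215 and 132 CPM in GMP, 1081 and 1220 in EoP and 3218 and 3998 in Eos (log2 4.38, SE 0.36, adjusted p = 1.75e-05). The cytosolic subunit Ncf1 rose by log2 3.51. Arg2, for arginase, rose from 1.21 and 0.45 to 54.7 and 120 CPM.

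Genes of granule release and of degradation were higher as well. Of 27 exocytosis genes 21 were higher and none lower (median log2 1.27), led by Sytl1, a Rab27 effector, the syntaxins Stx11 and Stx3, and Lyst, the lysosomal trafficking regulator mutated in Chediak-Higashi syndrome. Lyst had 282 and 196 CPM in GMP and 1609 and 2490 in Eos. Of 17 autophagy genes 14 were higher and none lower (median log2 1.36), among them Rb1cc1, Wipi1, Atg7 and Atg2a, each by log2 1.73 to 2.09. Without GMP replicate 1 the 14 autophagy rises became 9, and with library size alone 9 were higher and 2 lower.

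Lysosomal genes split into 19 higher, 2 lower and 17 not called of 38 (median log2 0.54, which is -0.03 with library size alone). Ctsh, for cathepsin H, rose from 57.0 and 51.0 to 789 and 1301 CPM, Man2b1, an alpha-mannosidase, from 388 and 338 to 2468 and 4658, and Tfeb, the factor that drives lysosomal genes, from 5.80 and 7.29 to 37.6 and 51.2. Gaa and Glb1, an acid glucosidase and galactosidase, fell by log2 -1.25 and -1.09. The 19 rises became 12 without GMP replicate 2, and 1 fall remained without either GMP library.

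Of 29 factors known in the eosinophil and neighbouring lineages, 13 were higher and 9 lower (median log2 1.18), and the share of falls is near the 29.0% of all described genes. Gata1, the factor that sets the eosinophil fate, had a mean of 4.79 ± 0.796 CPM in GMP and 77.3 ± 17.8 in Eos (SD, n = 2; log2 4.01, SE 0.29, adjusted p = 8.66e-06), and its level in EoP differed little from Eos (log2 0.25 for Eos over EoP, adjusted p = 4.27e-01). Cebpe, needed for granule formation, rose from 16.1 ± 6.61 to 69.5 ± 3.43 CPM (SD, n = 2; log2 2.11). Sfpi1, which encodes PU.1, rose from 129 ± 19.2 to 302 ± 11.3 CPM (SD, n = 2; log2 1.23). Ikzf3, for Aiolos, had 3.99 and 4.02 CPM in GMP, 240 and 311 in EoP and 470 and 846 in Eos (log2 7.36, SE 0.40, adjusted p = 2.12e-06).

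Id2, an inhibitor of basic helix-loop-helix factors, rose from 3.99 and 5.65 to 224 and 336 CPM. Gfi1b and Bhlhe40, a pair of repressors, rose by log2 4.55 and 4.18. The other rises were Ikzf2 (log2 3.31), Trib1 (2.70), Cebpb (1.68), Stat5b (1.48), Ikzf1 (1.19) and Ets1 (1.18). Of these, Trib1 and Ikzf1 were lost without GMP replicate 1, Ets1 without GMP replicate 2, and Cebpb without Eos replicate 2 or either GMP library. Zfpm1, for FOG-1, did not pass (log2 1.54, adjusted p = 5.41e-02), nor did Gfi1 (log2 -0.42) and Xbp1 (log2 -0.77).

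The 9 falls are given next. Irf8, a factor of monocytes and dendritic cells, fell from 169 and 176 to 16.7 and 10.2 CPM (log2 -3.67, SE 0.58, adjusted p = 8.21e-04). Gata2, a factor of stem cells, mast cells and basophils, fell from 78.3 and 113 to 19.2 and 7.82 CPM, and Myc, a driver of growth, from 195 and 297 to 60.9 and 19.6. Klf4 is given above. The remaining falls were Nfix (log2 -2.03), Mef2c (-1.97), Cebpa (-1.89), Runx1 (-1.70) and Myb (-1.67). Cebpa, Mef2c and Myb were lost without GMP replicate 2, and Mef2c, Nfix and Runx1 with the largest transcript only.

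Progenitor surface markers and progenitor factors were counted apart. None of 19 stem and progenitor markers was higher and 14 were lower (median log2 -2.01); without EoP replicate 2 or GMP replicate 2, 1 was called higher. Cd93, a surface marker of early progenitors, fell from 709 and 624 to 124 and 51.0 CPM. Angpt1, for angiopoietin 1, fell from 20.5 and 45.1 to 7.02 and 2.10 CPM, with 65.1 and 82.1 in EoP. Among 22 transcription factors of stem and progenitor cells 5 were higher and 11 lower (median log2 -1.0). The rises were led by Satb1, a chromatin organiser, from 75.3 and 75.5 to 313 and 512 CPM, and Nfe2, a factor of platelet formation, at log2 2.06. Tal1, a stem cell factor, fell from 45.3 and 42.7 to 14.4 and 12.6 CPM. Without GMP replicate 2 the 11 falls became 6, and without GMP replicate 1 the 5 rises became 3.

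Genes of DNA replication fell almost throughout, 40 of 43, and none was higher (median log2 -1.64). Their summed level was 4301 and 4474 CPM in GMP, 4476 and 4900 in EoP and 1994 and 995 in Eos. Pola1 and Prim1, of the polymerase that starts each strand, fell from 138 and 143 to 37.7 and 18.3 CPM and from 79.6 and 90.0 to 24.7 and 6.77 CPM. Pold2, of DNA polymerase delta, and Gins1, of the replicative helicase, fell by log2 -2.56 and -2.08. Pcna, the sliding clamp, was at 113 ± 6.14 CPM in GMP and 53.1 ± 16.3 in Eos (SD, n = 2), a fall lost without GMP replicate 2.

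Of 46 mitosis genes 33 were lower and none higher (median log2 -1.03), and the number of falls was 46 without Eos replicate 1, 15 without EoP replicate 2, 20 without Eos replicate 2, where 1 gene was higher, 7 without GMP replicate 1 and 5 without GMP replicate 2. The summed level was 6750 and 5886 CPM in GMP, 9468 and 10262 in EoP and 4389 and 2351 in Eos. Aurkb, the mitotic kinase Aurora B, fell from 174 and 142 to 65.8 and 24.7 CPM. Spc24 and Cenpn, of the kinetochore, fell by log2 -1.98 and -1.61, and Cdc20, an activator of the anaphase-promoting complex, by -1.6, a call lost without either GMP library. Mki67, the proliferation marker, did not pass, at 1238 ± 116 CPM in GMP and 781 ± 296 in Eos (SD, n = 2; log2 -0.66, adjusted p = 9.73e-02), nor did Cdk1 (log2 -0.76). Eos replicate 1 was above Eos replicate 2 in the sums of both cell cycle lists.

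Genes of cell cycle exit rose in 12 of 16 cases and fell in 2 (median log2 2.30). Mxd1, a MAX partner that opposes MYC, had 26.2 CPM in both GMP libraries, 137 and 120 in EoP and 1183 and 1419 in Eos (log2 5.63, SE 0.28, adjusted p = 2.12e-06). Ccng2, Gadd45a and Tob1, which slow the cell cycle, rose by log2 4.0, 3.66 and 3.58. Cdkn1b, for the inhibitor p27, was at 9.37 ± 4.2 CPM in GMP and 95.1 ± 41.3 in Eos (SD, n = 2), while Cdkn1a, for p21, did not pass (log2 -0.80). The falls were Rbl1 and Gadd45b, at log2 -1.09 and -0.75; none was called without EoP replicate 2, Eos replicate 2 or GMP replicate 1, and 1 without EoP replicate 1, Eos replicate 1 or GMP replicate 2.

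The machinery that makes ribosomes fell with replication. Of 41 ribosome biogenesis genes 39 were lower and none higher (median log2 -1.80). The summed level of all 42 genes of the list went from 4123 and 5044 CPM in GMP through 3043 and 3103 in EoP to 1656 and 997 in Eos. Dkc1, which modifies ribosomal RNA, fell from 240 and 285 to 65.6 and 24.5 CPM, Mybbp1a, a nucleolar regulator, from 164 and 237 to 52.2 and 20.1, and Npm1, for nucleophosmin, by log2 -2.18. Polr1b, of RNA polymerase I, and Gar1 fell by log2 -2.59 and -2.49. Counts on Rn45s, the gene of the ribosomal RNA precursor, came to 102710 and 97966 CPM in GMP and 112490 and 94256 in Eos. Such counts do not tell the precursor from mature ribosomal RNA, so the level of the precursor is not known from them. In all 6 fits with a library left out the number of falls stayed within 1.5 times of 39.

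Ribosomal protein genes were lower in 46 of 57 cases and higher in 1, Rps9 (median log2 -1.21). Rpl32 fell from 476 and 513 to 162 and 107 CPM and Rpl22 from 483 and 412 to 134 and 88.7. These genes have many processed copies in the genome and reads shared with them may be lost, so single levels are uncertain. Without GMP replicate 1 or GMP replicate 2 the falls were 30 or 23 and no gene was higher, and without EoP replicate 2 or Eos replicate 1, 2 were.

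Aminoacyl-tRNA synthetases, which charge transfer RNA, were lower in 14 of 20 cases and higher in none (median log2 -1.10), led by Vars, Iars, Eprs and Farsb at log2 -1.79 to -2.08; without GMP replicate 2, 6 were lower. Splicing factors were lower in 21 of 40 cases and higher in 1 (median log2 -0.59). Snrpd1, Snrpg and Snrpa, of the spliceosomal small ribonucleoproteins, fell by log2 -2.10, -1.90 and -1.88, and Sf3b1, a branch point factor, was the rise, lost without GMP replicate 1. Without GMP replicate 1 or GMP replicate 2, 12 or 9 splicing factors were lower, and without Eos replicate 1, 2 were higher.

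Mitochondrial genes of the nucleus fell in part. Mitochondrial ribosomal proteins were lower in 42 of 69 cases and higher in none (median log2 -0.98), led by Mrps28, from 46.1 and 48.8 to 11.7 and 3.85 CPM. Subunits of oxidative phosphorylation were lower in 38 of 68 cases and higher in 1, Cox7a2l, lost without either GMP library (median log2 -0.73). Atp5b, of the ATP synthase, was at 3146 ± 155 CPM in GMP and 1064 ± 130 in Eos (SD, n = 2; log2 -1.56, SE 0.28, adjusted p = 1.79e-03). Ndufv1, of complex I, fell from 68.7 and 73.0 to 27.8 and 18.8 CPM. These falls depended on single libraries: without GMP replicate 1 they were 26 and 18, without GMP replicate 2 19 and 10, and for the oxidative subunits 22 without EoP replicate 2 and 21 without Eos replicate 2. With library size alone 57 of the 68 oxidative subunits were lower.

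The protein-folding genes of the endoplasmic reticulum were lower in 16 of 31 cases and higher in 1, Derl1 (median log2 -0.77). Calr and Canx, the chaperones calreticulin and calnexin, fell from 829 and 994 to 335 and 150 CPM and from 1032 in both GMP libraries to 366 and 201 CPM, while Calr stood at 1634 and 1262 in EoP. Of the 31 genes 22 were higher in both EoP libraries than in all GMP and Eos libraries. That held for 3.16% of all rises, 16.3% of all falls and 25.2% of genes not called. Proteasome subunits were lower in 17 of 37 cases and higher in 1 (median log2 -0.58). The rise was Psmb9, a subunit of the immunoproteasome, from 157 and 103 to 261 and 231 CPM, and it was lost without GMP replicate 2. The proteasome falls were 6 without EoP replicate 2, 11 without Eos replicate 2, 4 when GMP replicate 1 was left out and 1 when GMP replicate 2 was, and leaving out the latter brought the ER falls to 10.

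**Figure D3:**
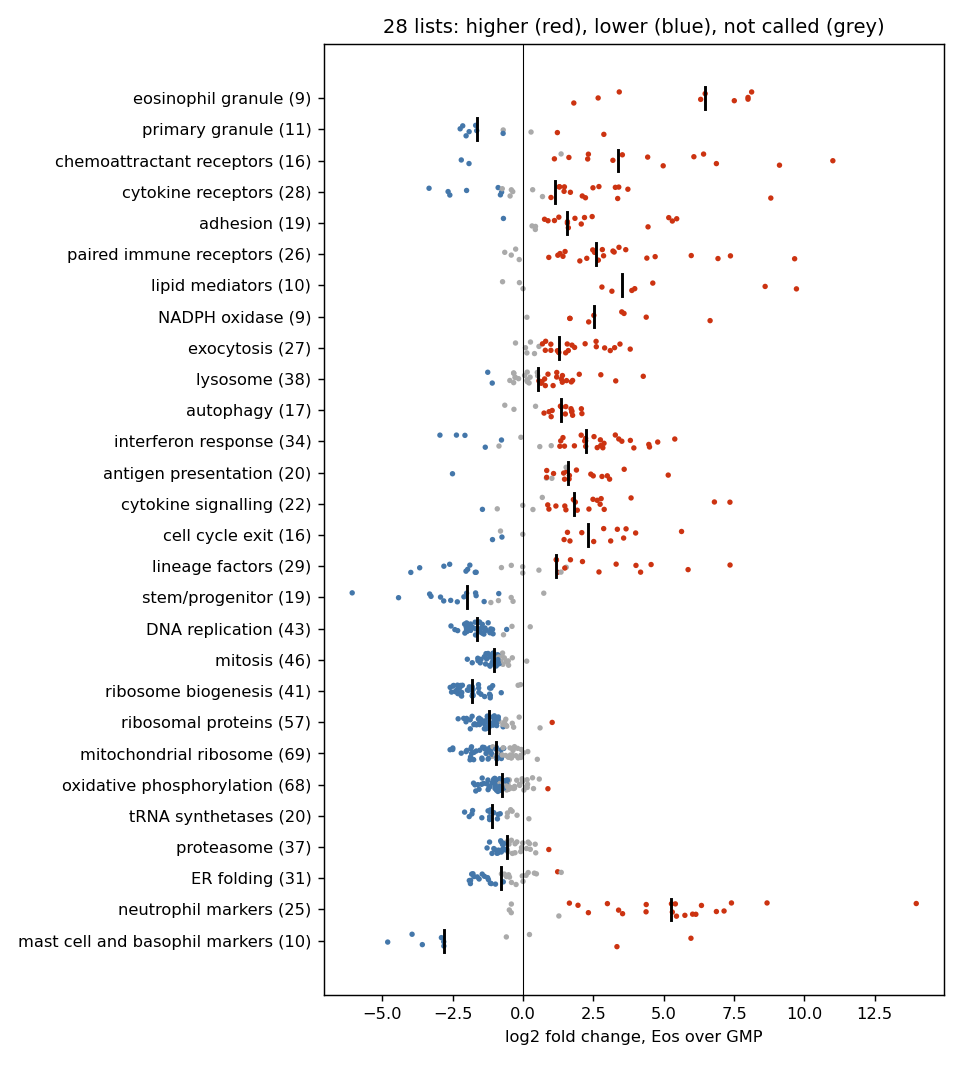
Log2 fold change of Eos over GMP (x axis) for the described genes of 28 gene lists (y axis, number of genes in brackets); red, blue and grey points are genes called higher, called lower and not called, and black bars are list medians. Medians of the receptor, oxidase and neutrophil marker lists lie to the right of 0 and those of the replication, ribosome and mitochondrial lists to the left.

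Metabolic genes were called in both directions, as described genes were in general (32.8% higher and 29.0% lower). Of 22 genes of glycolysis and the pentose phosphate pathway 11 were higher and 4 lower (median log2 0.53, which is -0.05 with library size alone). Slc2a3, the glucose transporter GLUT3, had 19.1 and 21.3 CPM in GMP and 851 and 944 in Eos (log2 5.48, SE 0.30, adjusted p = 2.12e-06). Slc16a3, which exports lactate, and Slc2a1, the transporter GLUT1, rose by log2 3.08 and 1.87. Pfkl and Pfkp, subunits of phosphofructokinase, fell by log2 -1.44 and -1.26, and no fall was left without GMP replicate 2.

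Cholesterol and fatty acid genes were higher in 10 of 27 cases and lower in 6 (median log2 0.19, which is -0.39 with library size alone and -0.04 with upper quartile factors), shares near the 32.8% and 29.0% of all described genes. Fasn and Elovl6, which build and lengthen fatty acids, fell from 195 and 217 to 56.0 and 19.96 CPM and from 21.4 and 27.8 to 4.61 and 3.27 CPM. Without GMP replicate 1, 6 genes were higher, and without Eos replicate 1, 10 were lower.

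Interferon-stimulated genes were higher in 25 of 34 cases and lower in 5 (median log2 2.22). Samhd1, which depletes nucleotides, had 143 and 126 CPM in GMP, 90.2 and 97.0 in EoP and 2278 and 3792 in Eos (log2 4.49, SE 0.34, adjusted p = 1.19e-05). Ifitm6, Zbp1 and Irf7, a membrane protein, a nucleic acid sensor and the factor that amplifies interferon, rose by log2 5.39, 4.79 and 4.47. Ifitm2 and Ifitm1 fell, from 330 and 270 to 52.3 and 25.0 CPM and from 30.1 and 38.2 to 8.92 and 4.2 CPM. In 16 of the 34 genes both EoP libraries were below all GMP and Eos libraries. That held for 8.88% of all rises, 3.39% of all falls and 13.2% of genes not called. The 5 falls became 3 without Eos replicate 2 or either GMP library.

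Sensors of microbes were higher in 12 of 29 cases and lower in 7 (median log2 0.32, which is -0.26 with library size alone). These shares are near the 32.8% higher and 29.0% lower of all described genes. Tlr13, a sensor of bacterial ribosomal RNA, had 1.57 and 1.64 CPM in GMP, 1.41 and 0.51 in EoP and 159 and 252 in Eos (log2 6.99, SE 0.43, adjusted p = 3.76e-06). Nod1 and Nod2, sensors of bacterial cell walls, rose by log2 3.60 and 4.32. Cd14, the co-receptor for lipopolysaccharide, fell from 19.9 and 24.1 to 2.51 and 1.87 CPM, and Mb21d1, which encodes the DNA sensor cGAS, from 69.7 and 47.1 to 18.8 and 7.35. Without GMP replicate 1, 4 genes were lower.

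Of 16 NF-kappaB genes 8 were higher and 1 lower (median log2 0.71), led by Birc3, an inhibitor of apoptosis, from 31.9 and 27.8 to 170 and 330 CPM; without GMP replicate 1, 4 were higher. Genes of cytokine signalling were higher in 17 of 22 cases and lower in 1, Jak3 (median log2 1.82); without Eos replicate 1, 2 were lower. Fgr, a Src family kinase of phagocytes, rose from 2.66 and 2.83 to 338 and 561 CPM. Syk, a kinase below Fc receptors and integrins, rose by log2 2.88. Cish, a feedback inhibitor of STAT5 signals, rose from 0.60 and 3.12 to 13.9 and 37.9 CPM.

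Among 20 described cytokines and chemokines 10 were higher and 4 lower (median log2 1.49). Il4, a cytokine that eosinophils store, had 1.33 and 1.19 CPM in GMP, 23.2 and 12.9 in EoP and 66.9 and 93.1 in Eos (log2 5.97, SE 0.42, adjusted p = 7.18e-06). Il1rn, the interleukin-1 receptor antagonist, rose from 0.72 and 1.78 to 159 and 258 CPM, and Ltb, for lymphotoxin beta, from 1.33 and 0.15 to 36.5 and 55.8. Il5, Il13 and Il6 were below the described level. Ccl9 fell from 159 and 160 to 54.1 and 51.8 CPM and Il12a from 22.7 and 23.6 to 7.42 and 4.55. Without either GMP library, 2 of the 4 falls were left; Vegfa and Tnfsf13 were those lost.

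Antigen presentation genes were higher in 16 of 20 cases and lower in 1 (median log2 1.6). H2-D1 and H2-K1, which carry peptides to T cells, rose from 345 and 346 to 2255 and 3256 CPM and from 189 and 186 to 916 and 1199. The coordinates in the files are those of a C57BL/6J genome and the mice were Balb/c, so levels at these variable genes are uncertain. Cd80, a costimulator, rose from 0 and 1.19 to 15.8 and 24.6 CPM. H2-DMa, a chaperone of class II loading, fell from 107 and 97.7 to 21.2 and 14.7 CPM, and Cd74, the invariant chain, did not pass (log2 1.53, adjusted p = 8.45e-02).

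Genes of the BCL2 family and of apoptosis were higher in 12 of 23 cases and lower in 5 (median log2 0.86), beside 32.8% and 29.0% of all described genes. Fas, a death receptor, rose from 2.42 and 1.04 to 53.2 and 89.1 CPM. Mcl1, a survival factor, rose from 204 and 307 to 918 and 2056 CPM, while Bcl2, another, fell from 80.0 and 87.0 to 15.3 and 6.54. Without EoP replicate 2, GMP replicate 1 or GMP replicate 2 the falls were 3, 2 and 3. Immediate early genes were called higher in 3 and lower in 3 of 21 cases (median log2 -0.33), and their sums were uneven within each group: 1011 and 3775 CPM in GMP, 7678 and 439 in EoP and 2059 and 6459 in Eos. Fos, for one, was at 294 ± 270 CPM in GMP and 317 ± 346 in Eos (SD, n = 2; log2 0.11, SE 1.53). The called numbers ran from 1 to 4 for rises and from 0 to 5 for falls when 1 library was left out: the rises were 1 without GMP replicate 1, and the falls were 0 without GMP replicate 2 or either Eos library, 5 without either EoP library and 1 without GMP replicate 1.

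Chromatin modifiers were higher in 22 of 50 cases and lower in 15 (median log2 0.52, which is -0.06 with library size alone), beside 32.8% and 29.0% of all described genes. Padi4, which citrullinates histones, had 3.26 and 2.68 CPM in GMP, 40.9 and 41.1 in EoP and 358 and 490 in Eos (log2 7.14, SE 0.31, adjusted p = 1.38e-06). Jhdm1d, Kdm6b and Kdm4a, all histone demethylases, rose by log2 3.60, 2.96 and 2.49. The arginine methyltransferases Prmt1 and Prmt5, the acetyltransferase Kat2a and the DNA methyltransferase Dnmt3b fell by log2 -2.45, -2.37, -2.21 and -1.84. Without GMP replicate 2, 6 were lower.

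Markers of other cells moved with the comparison. Neutrophil markers were higher in 21 of 25 cases and lower in none (median log2 5.27), and 1 of the 29 genes of that list had no count in GMP and none was without a count in Eos. Without Retnlg the summed level was 3141 and 1463 CPM in GMP, 2719 and 2584 in EoP and 30240 and 24796 in Eos. Ltf, for the secondary granule protein lactoferrin, had 3.14 and 4.61 CPM in GMP, 2.71 and 1.20 in EoP and 713 and 597 in Eos (log2 7.41, SE 0.40, adjusted p = 2.12e-06). Mmp9, for gelatinase, rose from 1.09 and 1.19 to 409 and 528 CPM. Ngp and Camp, further secondary granule genes, were at 4171 ± 408 and 688 ± 298 CPM in Eos, and S100a9 at 6551 ± 3064 (SD, n = 2). Several genes of this list (Cybb, Itgam, Padi4, Fpr1) are also in other lists above, and some are known in eosinophils. Csf3r, the G-CSF receptor, was at 201 ± 6.95 CPM in GMP and 151 ± 62.9 in Eos (SD, n = 2; log2 -0.42, adjusted p = 2.34e-01) and lower in EoP than in either. Without Eos replicate 1, 2 markers were called lower.

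Markers of monocytes, macrophages and dendritic cells split, with 7 of 19 higher and 8 lower (median log2 -0.48). Over all described genes 32.8% were higher and 29.0% lower. The rises included Emr1, for F4/80, a protein that mouse eosinophils carry, from 5.44 and 7.58 to 984 and 1972 CPM, and Fn1, for fibronectin, from 20.2 and 24.7 to 93.6 and 62.8, a call lost with the largest transcript only. The falls were led by Klf4, Irf8 and F13a1, the last from 510 and 458 to 48.3 and 31.5 CPM. Mast cell and basophil markers were lower in 6 of 10 cases and higher in 2, Il4 and the integrin Itga2 (median log2 -2.82), and their sum was 1348 and 1347 CPM in GMP, 1655 and 4542 in EoP and 376 and 305 in Eos. Cpa3, for a granule carboxypeptidase, fell from 207 and 256 to 27.7 and 10.9 CPM. Hdc, which makes histamine, did not pass (log2 -0.59, adjusted p = 9.17e-02).

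Markers of cells outside the myeloid lineage were compared last. B cell markers summed to 56.4 and 42.7 CPM in GMP and 270 and 128 in Eos. Of the 18 genes of that list 9 were described, with 7 higher and none lower (median log2 2.81). A gene could be described through its level in Eos alone, so the filter bears on these counts. With 10 CPM as the mean over the 4 libraries 1 was higher, with 10 CPM in both libraries of a group 2, and at 50 CPM in a group 0. Fewer were also called without Eos replicate 1 or either GMP library. T and NK cell markers summed to 776 and 671 CPM in GMP and 451 and 173 in Eos. Of 3 described genes of that list Cd3d was higher, and Gzmb and Nkg7 were lower; Nkg7 was lost without EoP replicate 2 or either GMP library. Erythroid markers summed to 219 and 213 CPM in GMP and 332 and 486 in Eos, with 7 of 11 higher (median log2 2.62). They were led by the beta-globin genes, whose 2 pairs of symbols carry identical counts. The erythroid rises numbered 5 with 10 CPM as the mean over the 4 libraries. They numbered 4 with 10 CPM in both libraries of a group and 0 at 50 CPM in a group. Without Eos replicate 1, 1 erythroid gene was lower. Megakaryocyte markers were higher in 3 of 6 cases and lower in 2, beside 32.8% and 29.0% of all described genes. Their median log2 was 0.05, which is -0.52 with library size alone. Itgb3 made up most of their sum, 738 and 1156 CPM in Eos. At 50 CPM in a group 1 megakaryocyte marker was higher and 0 were lower. The falls were also fewer without Eos replicate 2 or either GMP library. A single stromal gene, Pdgfrb, was described, and it was lower.

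Where the EoP libraries stood differed between the classes. Of the 2973 rises, 1665 (56.0%) had both EoP libraries between the GMP and the Eos libraries, 94 (3.16%) had both above and 264 (8.88%) had both below. Of the 2624 falls, 1042 (39.7%) had EoP between, 429 (16.3%) above and 89 (3.39%) below. The rest overlapped. Among the 3461 genes not called between both ends, 871 (25.2%) had EoP above and 457 (13.2%) below all GMP and Eos libraries. These are counts of positions and not of calls, and since the steps share the GMP and Eos libraries with the net change they are no independent test.

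The gene groups took different paths. All 9 eosinophil granule genes and 40 of 46 mitosis genes had EoP above both ends. Over all described genes this held for 3.16% of rises, 16.3% of falls and 25.2% of those not called. Of 43 replication genes 19 had EoP above and 9 between, and of 41 ribosome biogenesis genes 29 had EoP between. A place between was found for 56.0% of all rises, 39.7% of all falls and 3.93% of genes not called. Of the 25 neutrophil markers 13 had EoP below both ends, as did 6 of 11 genes of the primary granule list, Igsf6 among them. Such a low was seen for 8.88% of all rises, 3.39% of all falls and 13.2% of genes not called. Ccr3 rose at each step, by log2 4.46 from GMP to EoP and 6.55 from EoP to Eos. Alox15 rose mainly at the first, by log2 8.0 and then 1.72, and Retnlg mainly at the second, by 1.99 and then 11.98.

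**Figure D4:**
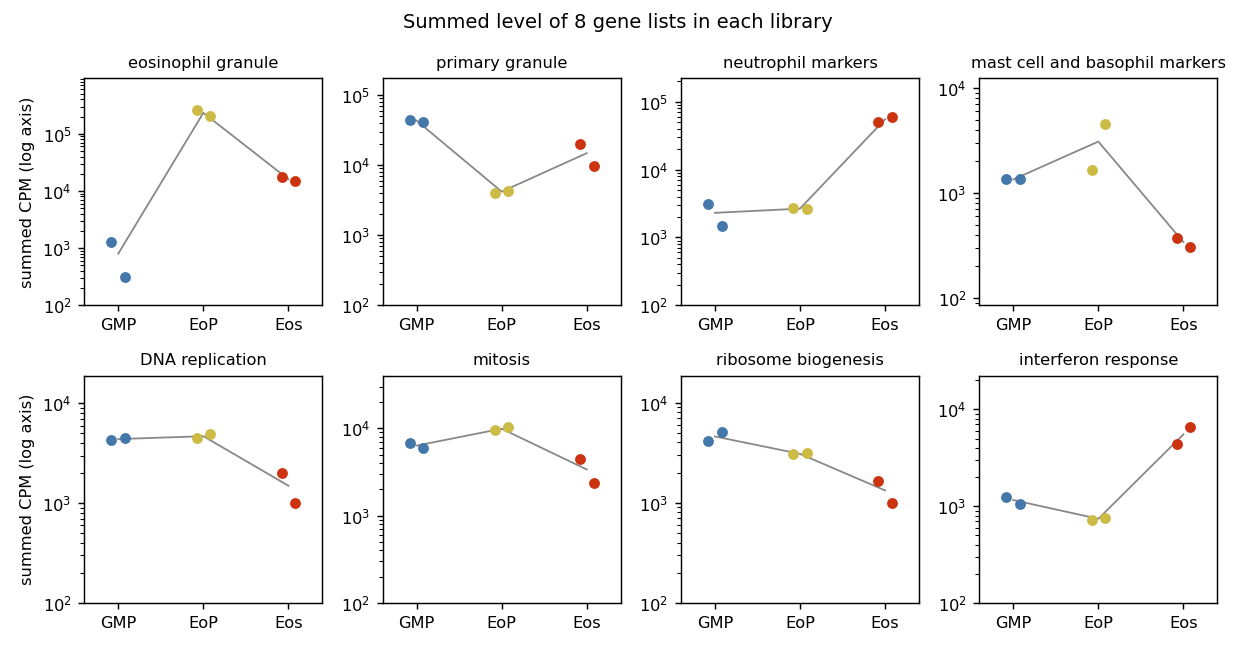
Summed level of 8 gene lists in each library (y axis, CPM, log axis) for GMP, EoP and Eos (x axis), with a line through the means of the 2 libraries. Eosinophil granule genes peak in EoP, primary granule genes have their low there, and neutrophil markers are at similar sums in GMP and EoP and higher in Eos.

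Levels of different genes were compared on the deposited RPKM, which divide by transcript length. In GMP the genes with the highest summed RPKM included Rn45s (mean 5855), Mpo (3885), Elane (2249), Prtn3 (939), Ctsg (857), S100a9 (577) and Atp5b (569). In Eos they were Retnlg (13225), Rn45s (5301), S100a9 (4110), S100a8 (2557), Actb (2184), Ear7 (2127), Ear1 (1687) and Tmsb4x (1560). S100a8 and S100a9 form the calprotectin of neutrophils and monocytes, and Actb and Tmsb4x encode actin and the actin-binding thymosin beta 4. Actb and Tmsb4x rose by log2 2.39 and 2.56 in CPM. Mpo, first among protein-coding genes in GMP, had a mean of 871 RPKM in Eos.

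The smallest changes that were called at 100 CPM or more were Fam168b (log2 0.52), Adcy7 (0.52), Pacsin2 (0.55) and Rap1a (0.55) among the rises and D10Wsu102e (-0.54) and Chsy1 (-0.54) among the falls. Pacsin2, for a membrane-bending protein, had 79.2 and 78.8 CPM in GMP and 115 and 116 in Eos. The 4 rises turn negative with library size alone, at log2 -0.03 to -0.06, and all 6 calls were lost without EoP replicate 1 and without either GMP library. At the level that sets which genes are described, Zfp932 (10.004 CPM in GMP) and Clec11a (10.009) lay just inside, and Ppih (9.99) and Gm5617 (9.99) just outside.

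H3K4me3 peaks were compared only as lists, since each cell type had 1 library and no replicate. The GMP list held 52791 summits in 30645 regions and the Eos list 45030 in 33847, and the authors' files annotate 40195 and 26079 summits to promoters. Most described genes had a promoter peak in both lists (8390 of 9058, 92.6%). Among the 2973 genes with more RNA in Eos, 80 (2.69%, Wilson 95% interval 2.17 to 3.34) had a promoter peak in the Eos list only and 46 (1.55%, 1.16 to 2.06) in the GMP list only. Among the 2624 with less RNA in Eos, 2 (0.076%, 0.021 to 0.28) had it in the Eos list only and 97 (3.70%, 3.04 to 4.49) in the GMP list only. Among the 3461 not called these were 5 (0.14%, 0.062 to 0.34) and 57 (1.65%, 1.27 to 2.13). Intervals cover counting over genes, and the depth behind each list is unknown.

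**Figure D5:**
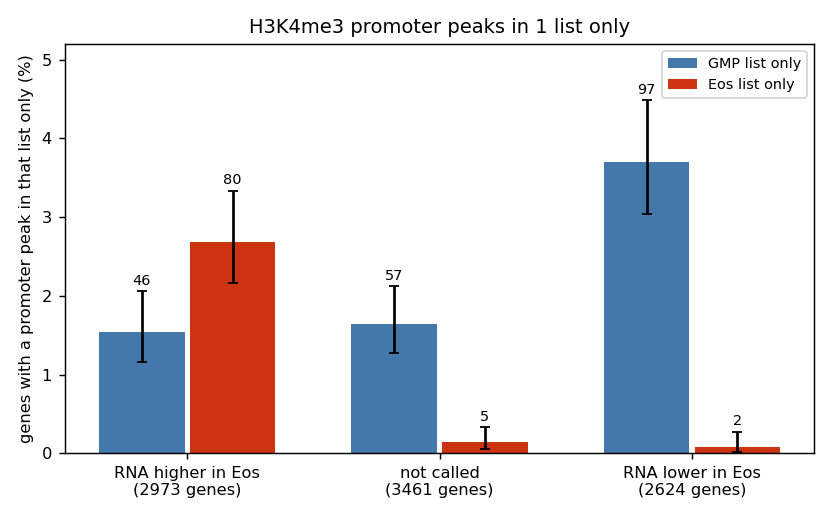
Share of described genes with an H3K4me3 promoter peak in only the GMP list (blue) or only the Eos list (red), in percent, for genes with RNA higher in Eos, not called and lower in Eos; error bars are Wilson 95% intervals and numbers over bars are genes. Peaks in the Eos list only are found mostly among genes with more RNA in Eos.

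Of the 12 largest rises of RNA, Serpinb2, Retnlg and Ccr3 had a promoter peak in the Eos list only, and Ddx3y and Eif2s3y in the GMP list only, against their RNA. Of the 12 largest falls, Prss34, Serpinf1, Bex6, Armcx4 and Mcpt8 had one in the GMP list only. Over all described genes these shares were 0.96% for the Eos list only and 2.21% for the GMP list only. The best Ccr3 peak of the Eos list lay at chr9:124022752-124023268 with a fold enrichment of 4.35 and a −log10 q of 4.80 in the authors' values. Retnlg had 3 promoter regions in the Eos list, the best at chr16:48872982-48873180 (fold 4.90), and Serpinb2 had 1, at chr1:107512254-107512477 (fold 3.94). Prss34 had its best GMP peak at chr17:25299113-25299634 (fold 4.80), Serpinf1 at chr11:75422321-75422525 (fold 5.37) and Bex6 at chr16:32179772-32180052 (fold 6.61). The −log10 q was 4.32 for the best Retnlg peak, 2.89 for Serpinb2, 4.89 for Prss34, 4.87 for Serpinf1 and 7.41 for Bex6. With Ccr3, all 6 thus lay below the stricter threshold of 10, at which none of them would be listed. None of these 6 genes had a promoter peak in the EoP list.

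Peaks and RNA were set side by side at granule genes. Mpo, Elane and Prtn3 had promoter peaks in the GMP list, Mpo had 1 in the EoP list, and none of the 3 had one in the Eos list, although both Eos RNA libraries held their RNA. Epx and Prg2 had promoter peaks in all 3 lists. Ear1 and Il5ra had them in the EoP and Eos lists and not in the GMP list. The H3K4me3 and RNA libraries came from different sorts, and whether the sorts differed in their cells was not tested.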

How the data were processed

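The RNA files give, per the file headers, an estimated count for each RefSeq transcript, rounded by the authors to a whole number, beside the authors' RPKM. Bowtie 1.0.0, STAR 2.4.0c and mm10 are named with no role, per the submitters' processing notes; for the counting tool the sources used here give no name. The H3K4me3 lists hold, per the file headers, a pileup signal, −log10 p and q values, a fold enrichment ratio and a length for each summit the authors called in 1 library.

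Estimated counts were summed per gene and tested with edgeR 4.0.16 (filterByExpr, TMM, quasi-likelihood, contrast Eos minus GMP over 6 libraries, 3 residual degrees of freedom), a script tested on simulated data. The simulated data changed only a small set of genes, so they do not test the scaling under changes as broad as those found here. Alternatives used DESeq2 1.42.0, limma 3.58.1 on log2(RPKM + 0.5), other scalings, filters and transcript sums, single libraries left out and a replicate block. Leaving out Rn45s was added after the data were seen. Same-numbered libraries did not deviate together, so the numbers were not taken as pairs.

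Named were the gate genes, the 12 largest rises and falls of at least 20 CPM without overlap of the groups, up to 4 called members per list and direction, the called lineage factors, the 8 highest RPKM per group, the 6 smallest calls from 100 CPM, the genes at the 10 CPM edge, and members of textbook role. Some of the last passed the test and were added after their values were seen. The members and lists were chosen with earlier results of these data known. A few genes that this rule names are not reported here.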

Additional observations from a re-analysis of the deposited data

How the results depend on the processing

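The 2973 rises numbered 1865 with library size alone and 1578 with a minimum change of 2-fold, and ran from 2227 to 3251 with 1 library left out. The 2624 falls numbered 1668 with the largest transcript only, 4039 with library size alone, 888 with the 2-fold minimum and 1156 at 50 CPM, and ran from 1266 to 3005 with 1 library left out. With a replicate block 2877 rose and 2620 fell, and that block has no pairing behind it: deviations of same-numbered libraries correlated at -0.0995, 0.0194 and -0.0849 for the 3 pairs of cell types. Among called genes 63.9% were higher with the largest transcript only, 64.0% with the 2-fold minimum, 66.1% without GMP replicate 2 and 63.1% without EoP replicate 2, against 53.1%. Adcy7, Fam168b, Pacsin2 and Rap1a reversed with library size alone, at log2 -0.0538, -0.0615, -0.0316 and -0.0364. The causes of these shifts were not tested.

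Mitosis falls numbered 11 with the largest transcript only and 20 with only the GMP and Eos libraries, where Mpo was also not called. Of the named genes, 38 lost their call without some library and 28 under some other setting.

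Shares with a promoter peak moved with the peak threshold. With −log10 q of at least 10 they were, for genes higher, lower and not called, 81.2%, 92.2% and 93.1% in the GMP list, 76.6%, 75.7% and 84.4% in the Eos list, and 7.80%, 17.0% and 9.56% in the GMP list only, and 0.53% and 0.90% of lower and not called genes had one in the Eos list only. With the same number of top-ranked peaks per list they were 83.4%, 93.9% and 94.1% in the GMP list and 90.1% and 92.0% of higher and lower genes in the Eos list. Those in the GMP list only were then 0.57% of higher and 1.01% of not called genes, and those in the Eos list only 7.27%, 1.52% and 1.53%. The GMP libraries had the fewest counts, and the depth of the peak libraries is unknown.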

Other observations

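Y-linked genes separated the GMP RNA from the rest. Ddx3y and Eif2s3y, an RNA helicase and a translation factor gene of the Y chromosome, had no count in either GMP library, and Kdm5d and Uty, both histone demethylase genes, had 1 count each over the group. In Eos the levels were 47.3 and 34.1 CPM for Ddx3y and 70.4 and 36.2 for Eif2s3y, at least 206-fold and 273-fold above a floor of 3 counts over the GMP group. In EoP they were 46.0 and 30.5 CPM for Ddx3y and 44.9 and 32.1 for Eif2s3y. Xist, the RNA of the inactive X chromosome, was present in every library, at 5053 and 3226 CPM in GMP, 1502 and 3790 in EoP and 1549 and 1886 in Eos. The H3K4me3 list of GMP held promoter peaks for Ddx3y and Eif2s3y and the Eos list held none, the reverse of the RNA. The sources used here do not give the sex of the mice, so sex and cell type cannot be told apart for sex-linked genes. The part of sex in the changes of other genes, or in the peak lists, was not tested.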
